A study of Mus musculus with 2 samples.

Results

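The keratin family was followed in mouse lung cells sorted as SPC/GFP+ EpCAM+ and profiled on Clariom S Mouse arrays, which here gave 1 signal for nearly every gene with a symbol. Every row of the deposited value table whose gene symbol was Krt followed by a digit was taken, and the keratin-associated and other Krt-prefixed genes were left out. This gave 49 rows and 49 genes, 1 row each, of 19505 named genes in all. They comprised 4 simple epithelial keratins (Krt7, Krt8, Krt18 and Krt19), 18 keratins of stratified epithelia, 9 of the hair root sheath, 12 of the hair shaft and 6 others, classed from textbook knowledge and not from the values. Krt74 is annotated in RefSeq as a transcribed pseudogene, and the RefSeq keratins Krt6a, Krt6b, Krt81, Krt83 and Krt87 were not analysed here.

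The smoke group was SPC/GFP+ EpCAM+ cells of mice exposed to smoke for 3 months, and the air group was the same sorted cells of control mice exposed to air for 3 months, with 1 array per group. SPC is surfactant protein C, the secreted product that identifies alveolar type 2 cells, and EpCAM is a surface protein of epithelia. The sources used here do not give the number of animals, their strain, age or sex, the construct behind the GFP, or whether animals were pooled. With 1 array per group there is no spread between replicates and no test, and every difference is one between these 2 arrays and not between the exposures. Because the samples are bulk RNA, fewer cells of a type and less RNA per cell cannot be told apart.

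Keratins are the intermediate filament proteins of epithelial cells. A filament is built from heterodimers of an acidic type I and a basic type II keratin, so each epithelium expresses both types, and the chains are typically found in set pairs. Simple epithelia use Krt8 with Krt18, joined by Krt7 and Krt19. Stratified epithelia use Krt5 with Krt14 in their basal layer and other pairs above it, while hair and nail use hard keratins. In lung, the alveolar and airway lining express simple keratins, airway basal cells express Krt5 and Krt14, and a high level of Krt8 marks the transitional epithelial cells seen in mouse lung after injury.

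The sort was checked with alveolar type 2 genes and with Epcam. Of 12 type 2 markers, 7 stood at the upper limit of the deposited scale, 19.93, on both arrays, Sftpc among them, and the other 5 had a median log2 difference, smoke minus air, of 0.04. The club cell marker Scgb1a1 also stood at that limit on both arrays, so reaching it does not set type 2 genes apart. Epcam had a log2 signal of 10.92 in smoke and 11.09 in air. All 10 endothelial markers read below also reached the level filter. Of these, Cdh5 (13.86 in smoke and 14.34 in air) and Eng (12.6 and 13.63) had higher signals than Epcam. The check therefore does not show that the sort held epithelial cells alone. The array medians over all rows were 4.53 in smoke and 4.61 in air, and the median log2 difference over the 19489 genes below the upper limit was -0.02. A gene was treated as above background when the higher of its signals reached 4.57, which is the median of all values, and as past the threshold when its log2 difference was at least 1 or at most -1, which is 2-fold.

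The simple epithelial keratins were the only class with all its genes above the level filter on both arrays, and 1 of the 4 was 2-fold or more lower in smoke and 0 were 2-fold or more higher, where 2.48% and 3.94% of all 10419 genes above the filter were. Krt8, the type II chain of simple epithelia, had a log2 signal of 9.39 in smoke and 10.50 in air. It was 2.16-fold lower in smoke, a log2 difference of -1.11. Krt18, its type I partner, had a signal of 11.07 in smoke and 11.13 in air, a log2 difference of -0.06. The values of the partners thus differed unequally between the arrays, with the difference of Krt8 lying at -1.05 relative to that of Krt18.

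Krt7, the second type II chain of simple epithelia, had a log2 signal of 13.93 in smoke and 14.10 in air, a log2 difference of -0.17. Krt19, a type I chain found in ducts and glands and in airway and alveolar lining, had a signal of 8.16 in smoke and 8.13 in air. Its log2 difference of 0.03 turned to -0.09 after quantile normalization and to -0.07 after centring by level. Krt7, Krt18 and Krt19 thus lay within 0.2 of zero on the deposited scale, and Krt8 stood apart from them.

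**Figure D1:**
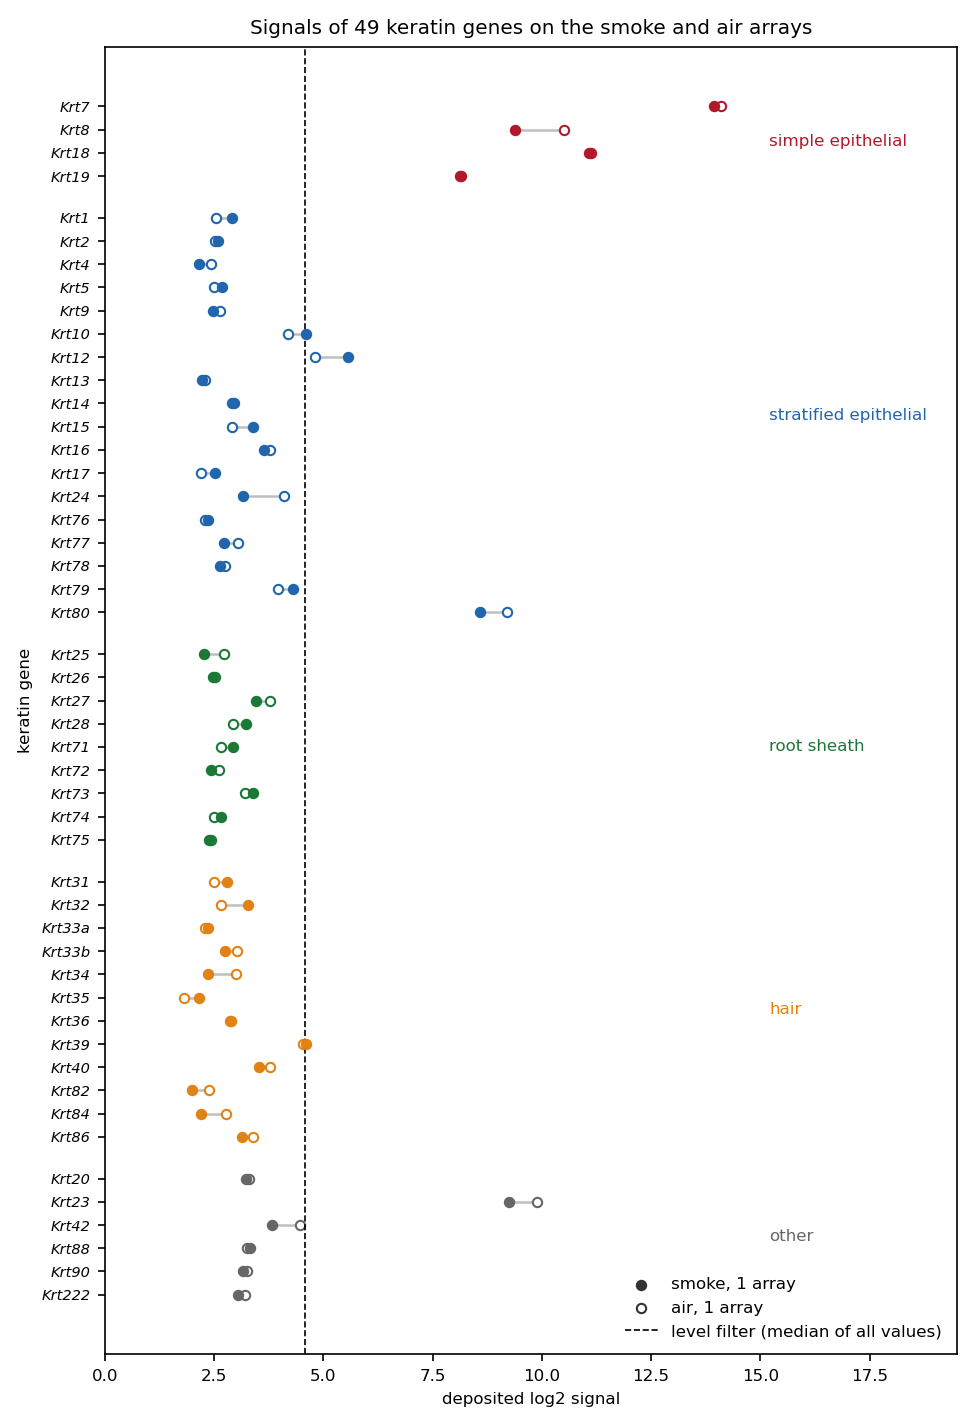
Deposited log2 signal of each of the 49 keratin genes (horizontal axis) on the smoke array (filled points) and the air array (open points), 1 array each, with genes grouped by class down the page and the dashed line at the level filter of 4.57. Krt8 has the widest gap among the simple keratins, with 9.39 in smoke and 10.50 in air, and 40 keratins lie below the filter on both arrays.

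Each keratin was set beside the 200 non-keratin genes nearest to it in mean level, since the spread of differences depends on level. Around Krt8 the median log2 difference of these genes was 0.10, with a robust SD, a scaled median absolute deviation, of 0.42. None of them (0%) was 2-fold or more lower in smoke, and 3.5% were 2-fold or more higher. The share lower depends on the window, as it was 0.5% around Krt18 and 1% around Krt23. Relative to that median the log2 difference of Krt8 was -1.21, which is -2.86 robust SDs. For Krt7, Krt18 and Krt19 the same figures were -0.54, -0.48 and -0.13 robust SDs. This spread holds measurement error and real differences together and does not replace replicates.

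**Figure D2:**
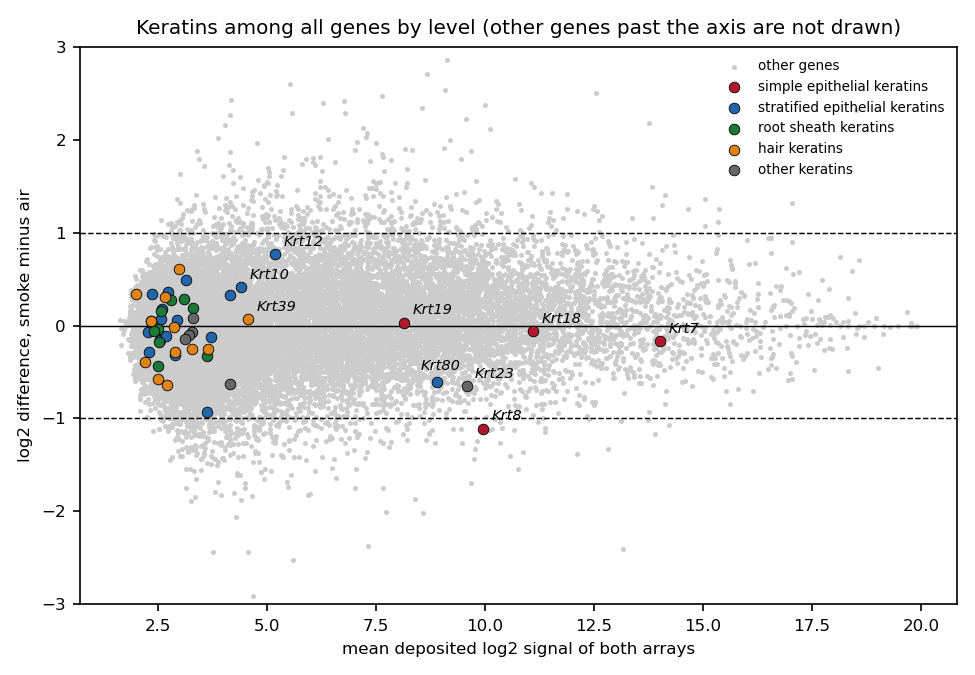
Log2 difference, smoke minus air (vertical axis), against the mean deposited log2 signal of both arrays (horizontal axis) for all genes below the upper limit (grey) and for the keratins coloured by class. The dashed lines mark 2-fold, and 11 other genes past the vertical axis are not drawn. Krt8, at -1.11, is the 1 keratin past 2-fold, and the keratins to the left of a mean signal of about 4.57 crowd the low end of the scale.

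In RefSeq (GRCm38.p6) the Krt8 and Krt18 genes follow each other on chromosome 15, on opposite strands and pointing away from each other, with 2 annotated non-coding genes and 0 protein-coding genes between them. Krt18 is the 1 type I keratin that lies on chromosome 15 among the 22 keratins measured there, and the other 27 lie on chromosome 11. Krt78, the measured keratin on the other side of Krt8, had a log2 signal of 2.63 in smoke and 2.74 in air, below the filter on both. Along both chromosomes keratins with positive and with negative differences stood next to one another.

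**Figure D3:**
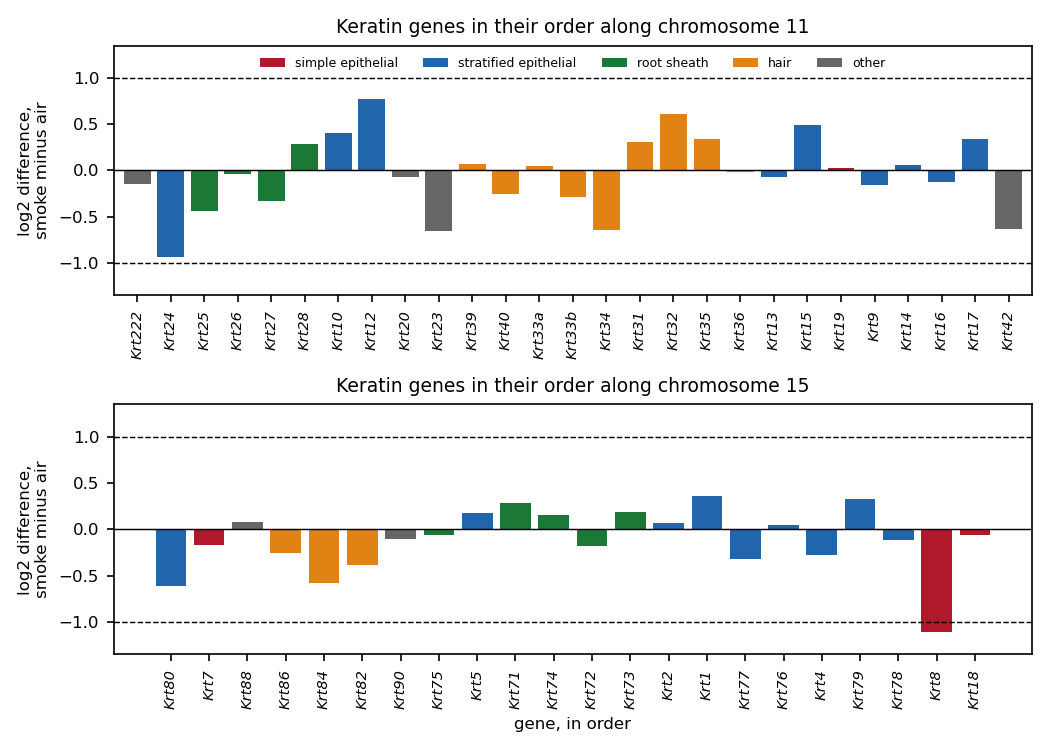
Log2 difference, smoke minus air (vertical axis), for the keratin genes in their order along chromosome 11 (above) and chromosome 15 (below), with distance not drawn and bars coloured by class. The bar of Krt8, at -1.11, stands between those of Krt78 at -0.11 and Krt18 at -0.06.

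The start regions of Krt8 and Krt18 are shown because these neighbouring partner genes had unequal differences. The sequences come from RefSeq (GRCm38.p6), run 5′ to 3′ along the gene's strand and cover 250 bases before and 50 bases after the annotated start. Capitals mark TATAAA, the letters of a TATA box, and CACCTG, the E-box form bound by Snail and ZEB repressors, each on either strand.
Krt8, chr15:102004293-102004592, minus strand: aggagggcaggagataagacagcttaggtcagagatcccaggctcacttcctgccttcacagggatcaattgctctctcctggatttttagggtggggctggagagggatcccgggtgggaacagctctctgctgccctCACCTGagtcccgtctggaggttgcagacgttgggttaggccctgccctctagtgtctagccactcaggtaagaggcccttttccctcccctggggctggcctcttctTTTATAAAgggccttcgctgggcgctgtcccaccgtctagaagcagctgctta
Krt18, chr15:102027966-102028265, plus strand: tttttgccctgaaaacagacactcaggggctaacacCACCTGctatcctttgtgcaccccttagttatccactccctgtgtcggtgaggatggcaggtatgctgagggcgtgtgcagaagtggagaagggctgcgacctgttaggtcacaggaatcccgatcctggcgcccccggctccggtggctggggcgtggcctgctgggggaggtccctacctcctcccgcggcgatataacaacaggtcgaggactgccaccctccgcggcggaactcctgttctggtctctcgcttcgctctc

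Counted from 0 at the first base of the annotated gene, CACCTG began at -111 in Krt8 and at -214 in Krt18. TATAAA was present in the Krt8 window, where matches on both strands began at -3 and -1 and so overlapped the annotated start itself. These exact letters were not in the Krt18 window, which holds the near form TATAAC. Near forms were not searched, so these matches do not show a TATA box in 1 partner and its absence in the other. TATAAA stood in 13.6% of all 32851 start windows of the same length and in 19 of 37 keratin windows (51.4%). CACCTG stood in 20.2% of all windows and in 15 of 37 keratin windows (40.5%). GGGCGG, the GC box, stood in 35.7% of all windows and in 2 of 37 keratin windows (5.41%), while neither Krt8 nor Krt18 held it; Krt7 held 4 copies. TGANTCA, the AP-1 site, and CCAAT stood in 2 and 15 of the 37 keratin windows (5.41% and 40.5%), against 7.81% and 37.4% of all windows. These letter matches describe the windows, and binding was not measured.

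Among the 18 keratins of stratified epithelia, 15 were below the level filter on both arrays and 0 passed 2-fold. Krt80, a type II keratin of differentiating epithelial cells, had a log2 signal of 8.59 in smoke and 9.20 in air, 1.53-fold lower. Krt12, the type I keratin of corneal epithelium, had a signal of 5.57 in smoke and 4.80 in air, a log2 difference of 0.77, or 0.53 after an offset of 16 was added on the linear scale. Krt10, the type I keratin of suprabasal epidermis, passed the filter by its smoke signal alone, with 4.61 in smoke and 4.20 in air. Krt80 was thus lower and Krt12 and Krt10 higher in smoke, each by less than 2-fold.

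The keratins of airway basal cells were all below the filter. Krt5 had a log2 signal of 2.68 in smoke and 2.50 in air. Krt14, its partner in basal cells, had 2.96 in smoke and 2.90 in air. Krt15, of basal and hair bulge cells, had 3.39 in smoke and 2.90 in air, and Krt17, of skin appendages and healing epithelium, had 2.53 in smoke and 2.19 in air. All 4 signals were higher in smoke, by 0.06 to 0.49 on the log2 scale, in a range where the offset cut the differences to between 0.02 and 0.17. The p63 gene Trp63, the transcription factor of basal cells, was also below the filter, with 3.39 in smoke and 2.57 in air.

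The 15 stratified keratins below the filter ran from 2.15 to 4.30 in smoke and from 2.19 to 4.09 in air. The widest difference in this range was that of Krt24, with a signal of 3.16 in smoke and 4.09 in air, a log2 difference of -0.93, or -0.41 after the offset. Over all 18 members 10 were higher and 8 lower in smoke, with a median log2 difference of 0.055, against -0.08 for the genes of like level.

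All 9 root sheath keratins were below the filter, with log2 signals of 2.28 to 3.46 in smoke and 2.44 to 3.79 in air, and their differences ran from -0.44 to 0.29. Of the 12 hair keratins, 11 were below the filter. Krt39, a type I hair keratin, passed it by its smoke signal alone, with 4.6 in smoke and 4.53 in air. The hair keratins had signals of 2.0 to 4.6 in smoke and 1.82 to 4.53 in air, and differences from -0.64 (Krt34) to 0.61 (Krt32). Neither class had a gene past 2-fold, and their medians of -0.04 and -0.135 compared with -0.09 and -0.08 for genes of like level. The root sheath median turned to 0.035 after quantile normalization and to 0.02 after centring by level.

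Of the 6 other keratins, Krt23, a type I keratin, was above the filter on both arrays. Its log2 signal was 9.25 in smoke and 9.90 in air, 1.57-fold lower. Krt42, a mouse type I keratin just under the filter, had 3.83 in smoke and 4.46 in air. Krt20, the type I keratin of gut lining, had 3.23 in smoke and 3.30 in air, and Krt88, Krt90 and Krt222 were below the filter with differences from -0.15 to 0.08. Relative to genes of like level, the differences of Krt23 and Krt80 were -0.70 and -0.68, or -1.5 and -1.48 robust SDs.

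Over the whole family, 9 of 49 genes were above the level filter, 7 of them on both arrays. Of the 9, 1 was 2-fold or more lower in smoke (Krt8, 11.1%) and 0 were 2-fold or more higher, against the 2.48% and 3.94% of all genes above the filter. At 1.5-fold, 3 of the 9 were lower (Krt8, Krt23 and Krt80, 33.3%) and 1 was higher (Krt12, 11.1%), against 9.19% and 14.5% of all genes above the filter. With 9 genes each call moves these shares by 11.1 percentage points, so the counts carry little weight by themselves. Whatever their level, 1 of 49 keratins was past 2-fold lower and 0 higher, against 2.09% and 2.4% of all genes.

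The median log2 difference of the whole family was -0.06, with 28 genes lower and 21 higher in smoke, close to the -0.07 of the genes of like level. Type II keratins had a median of -0.10 over 21 genes and type I keratins -0.05 over 28. Centred by level, 25 keratins were lower and 23 higher. The textbook pairs other than Krt8 with Krt18 stayed close: the type II minus type I gap in log2 difference was -0.20 for Krt7 with Krt19, 0.12 for Krt5 with Krt14, -0.05 for Krt1 with Krt10 and -0.21 for Krt4 with Krt13, the last 3 pairs resting largely on signals below the filter.

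Genes that build or anchor the filament network were examined next. Of 16 non-keratin intermediate filament and lamin genes, 3 were above the filter and 0 passed 2-fold. Vim, the filament protein vimentin of mesenchymal and blood cells, had a log2 signal of 11 in smoke and 11.39 in air. Lmna, the nuclear lamin A/C gene, had 8.93 in smoke and 9.54 in air, a log2 difference of -0.61, and Lmnb1, a B-type lamin, had 4.57 in smoke and 4.89 in air. All 3 were lower in smoke, and 10 of the 16 were lower over the whole list (median -0.125).

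Desmosomes tie keratin filaments to the cell surface through plakins and plakophilins. Of 21 measured genes of this list, 11 were above the filter, 0 were 2-fold or more higher and 1 was 2-fold or more lower, beside 3.94% and 2.48% of all genes above the filter. Pkp1, a plakophilin of stratified epithelia, had a log2 signal of 2.91 in smoke and 4.70 in air, a log2 difference of -1.79. It passed the filter by its air signal alone, and its difference of -0.84 after the offset is short of 2-fold. Dsp, desmoplakin, which binds keratin directly, had 9.45 in smoke and 9.08 in air. Jup, plakoglobin, had 14.16 in smoke and 14.24 in air, and Dsg2, the desmoglein of simple epithelia, had 3.87 in smoke and 4.79 in air, a log2 difference of -0.92. Dsg2 also passed the filter by its air signal alone, and its difference was -0.51 after the offset. The list median was -0.13, with 15 genes lower and 6 higher, but -0.055 after centring by level and -0.07 with the offset. Of the 6 higher, Dsc3 was below the filter and Dsp, Pkp2, Dst, Ppl and Evpl were above it. Ppl, a plakin, had 9.4 in smoke and 8.74 in air. The lean to lower values thus lay mostly in genes below the filter. Plec, the linker plectin, was not analysed here.

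Among 29 measured genes that bind, modify or regulate keratins, such as the 14-3-3 proteins, 23 were above the filter, 0 were 2-fold or more higher and 1 was 2-fold or more lower, which is close to the 2.48% lower among all genes above the filter. Pias1, a ligase of the SUMO modifier, had a log2 signal of 9.60 in smoke and 10.71 in air, a log2 difference of -1.11. The list median was 0.10, with 17 genes higher and 12 lower, but 0.02 after centring by level, with 14 of 29 lower, and 0 after quantile normalization. The cornified envelope list, which stratified epithelia use with their keratins, had 2 of 26 genes above the filter, Tgm1 (8.83 in smoke and 8.04 in air), a transglutaminase that cross-links envelope proteins, and Dmkn (4.96 in smoke and 4.65 in air). Its median was 0.05.

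Transitional alveolar epithelium, where Krt8 is a marker, was examined with 18 measured genes other than keratins. Of these 16 were above the filter and 0 passed 2-fold, and 13 were lower and 5 higher in smoke. The list median was -0.38, against -0.02 over all genes and 0.06 over all genes above the filter. Centred by level, 14 were lower and the median was -0.40. Anxa1, an annexin, differed most among those above the filter, at 10.34 in smoke and 11.21 in air on the log2 scale. Cdkn1a, the p21 cell cycle inhibitor, had 11.53 in smoke and 12.23 in air. Sfn, the epithelial 14-3-3 protein, had 4.75 in smoke and 5.59 in air, and is also counted among the keratin partners. Other members above the filter were higher in smoke. Ndrg1 had 6.03 in smoke and 5.45 in air, Plaur 6.64 and 6.15, and Lgals3 6.39 and 6.38. Cldn4, a tight junction gene of that state, was below the filter with 4.41 in smoke and 4.35 in air. The log2 of the summed linear signal of the list was 18.54 in smoke and 17.83 in air, the opposite direction to the median, and Clu, which had 18.51 in smoke and 17.77 in air, made up most of it.

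**Figure D4:**
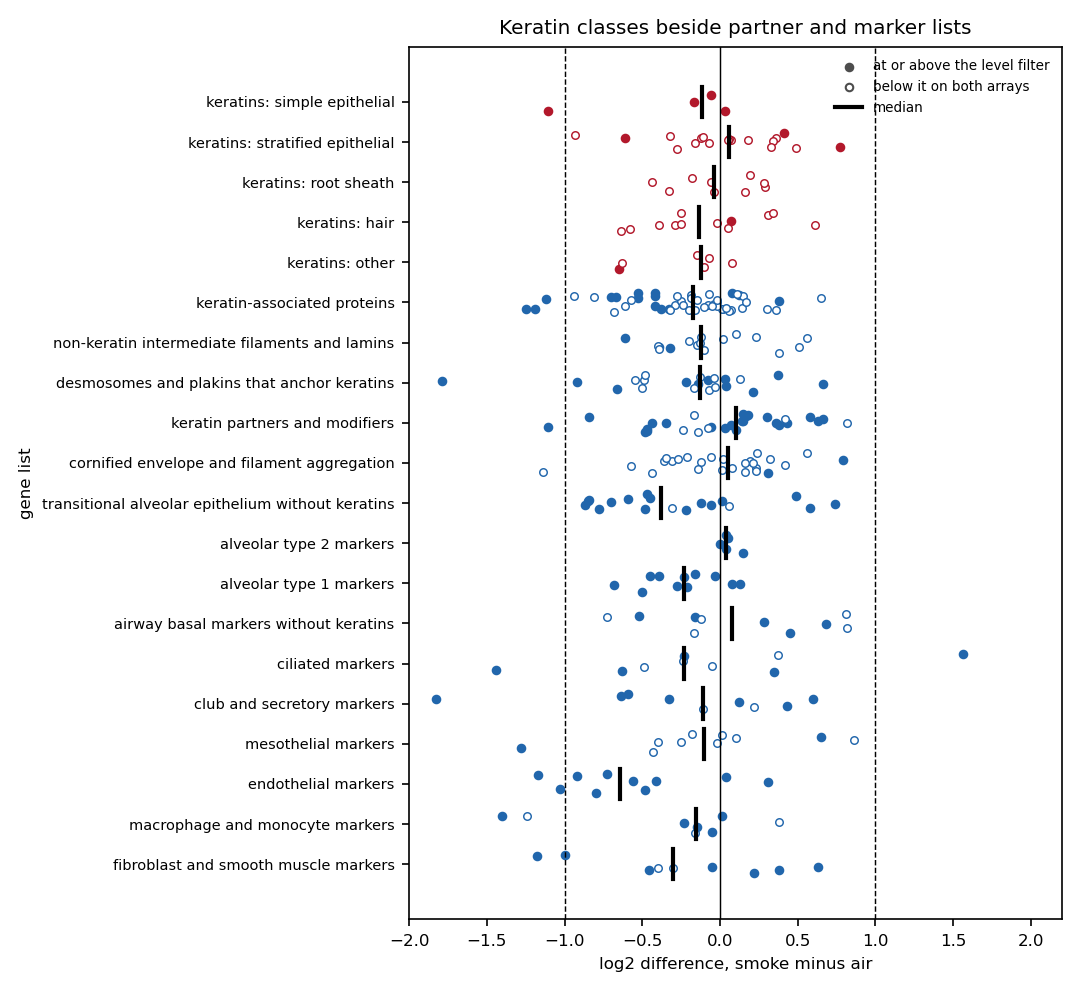
Log2 difference, smoke minus air (horizontal axis), of each gene in the 5 keratin classes (red) and in 15 other lists (blue), with filled points at or above the level filter, open points below it on both arrays, black bars at the medians and dashed lines at 2-fold. The simple keratins other than Krt8 lie near 0, and the endothelial list has the lowest median, -0.645.

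Markers of other cells that could carry keratin transcripts were read in the same arrays. For comparison, 51.2% of all genes measured and 44.7% of those above the filter were lower in smoke. Of all genes above the filter, 2.48% were 2-fold or more lower and 3.94% were 2-fold or more higher. Alveolar type 1 markers had 9 of 11 genes lower in smoke (median -0.23), with the largest difference at Clic5, a chloride channel family gene (15.46 in smoke and 16.14 in air), and a log2 summed signal of 19.69 in smoke and 19.71 in air. Ager (18.54 in smoke and 18.41 in air) and Cldn18 (18.52 and 18.55) made up most of that sum. Ciliated markers had 6 of 9 lower (median -0.23, summed 10.82 in smoke and 11.35 in air), where Cfap126 was 2.95-fold higher and Tppp3 2.71-fold lower. Club and secretory markers below the upper limit had 5 of 9 lower (median -0.11, summed 17.46 in smoke and 17.32 in air), with Scgb3a1 3.56-fold lower. Hp, at 16.89 in smoke and 16.46 in air, made up most of that sum, while Cyp2f2 had 15.8 in smoke and 16.13 in air. The sum thus describes mainly Hp and not the list. Mesothelial markers, of cells that also express simple keratins, had 2 of 10 genes above the filter. Msln had a signal of 3.57 in smoke and 4.85 in air, and passed the filter by its air signal alone. Its log2 difference of -1.28 became -0.69 after the offset, short of 2-fold. Upk3b had 6.08 in smoke and 5.43 in air. Airway basal markers had a median of 0.08, with 5 of 10 lower, and the largest difference above the filter at Icam1 (13.59 in smoke and 12.91 in air). Trp63, Ngfr, Dapl1, Aqp3 and Col17a1 of this list were below the filter, and Pdpn is also in the type 1 list. The list median is therefore not a reading of basal cells alone.

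Markers of cell types that the epithelial sort does not target were also read. The same shares apply: 51.2% of all genes and 44.7% of those above the filter were lower. Of those above the filter, 2.48% were 2-fold or more lower. Endothelial markers had 8 of 10 genes lower in smoke (median -0.645, summed 14.68 in smoke and 15.33 in air), with Cldn5 and Eng 2.25-fold and 2.04-fold lower. Macrophage and monocyte markers had 6 of 8 lower (median -0.155, summed 17.92 on both arrays), with Chil3 2.64-fold lower. Lyz1, at 17.91 in smoke and 17.90 in air, made up nearly all of that sum, so the sum describes Lyz1 and not the list. Marco, Siglecf and Adgre1 of this list were below the filter on both arrays. Fibroblast and smooth muscle markers had 6 of 9 lower (median -0.30, summed 8.57 in smoke and 8.72 in air), with Col1a1 2.27-fold and Pdgfrb 2-fold lower. Col3a1 (5.24 in smoke and 4.61 in air), Dcn (5.54 and 5.16) and Acta2 (7.38 and 7.16) were above the filter and higher in smoke. Tagln and Myh11, among the lower genes, were below the filter on both arrays. After the offset the log2 differences of Col1a1 and Pdgfrb were -0.89 and -0.75, short of 2-fold. The part of these cell types in the lower Krt8 signal was not tested. RefSeq names 1 Krt8 pseudogene, and whether the array's probes separate it from Krt8 was not tested.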

How the data were processed

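The deposited table holds 1 number for each identifier on each array. These were read as log2 signals, a scale seen from the values as the authors deposited them, which ran to an upper limit of 19.93 with a median of 4.53 on the smoke array and 4.61 on the air array. Per the submitters' processing notes, Transcriptome Analysis Console was used. The sources used here give neither its settings nor the background correction, the normalization or the genome build. The scale and centring are therefore read from the values, while the direction follows from the sample labels.

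Of 22206 rows, 19572 had 1 gene symbol, 0 had several and 2634 had none. All 19572 matched RefSeq (GRCm38.p6) by Entrez number, and 0 symbols changed. Rows of 1 gene were averaged, which applied to 55 genes and to 0 keratins; 16 genes that reached that limit in smoke and in air alike were left out. The level filter was 4.57 on the brighter array and the threshold 2-fold. No test across samples was possible. Python 3.11.15, numpy 2.4.6 and pandas 2.3.3 were used.

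The keratins, classes, lists and thresholds were chosen with earlier results of these data known. Named genes were the simple and basal keratins, every keratin above the filter or past 2-fold, list members past 2-fold above the filter or else the largest difference, and Vim, Lmna, Plec, Dsp, Jup, Dsg2 and Epcam; the others were named after their values were seen. Alternatives were other filters and thresholds, quantile normalization, centring by the 200 genes nearest in level, an offset of 16, and the brightest row per gene. The number of arrays limits the precision.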

Additional observations from a re-analysis of the deposited data

How the results depend on the processing

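Krt8 stayed past 2-fold lower under quantile normalization, with the offset and after centring by level. The level filters and the choice of row could not change its call, since it lies above each filter on both arrays and has 1 row. The offset of 16 is small beside the linear signals of Krt8 and could change little, and the difference became -1.09. Only the 3-fold threshold, which its log2 difference of -1.11 does not reach, ended the call. The count of keratins lower in smoke was 1 at 2-fold, 3 at 1.5-fold and 0 at 3-fold, and the count higher was 0 at 2-fold and 1 at 1.5-fold. Filters and thresholds do not enter the medians.

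Medians that moved by more than 0.1 on the log2 scale were these. Under quantile normalization they were -0.03 for hair keratins, -0.015 for the other keratins, -0.3475 for alveolar type 1, 0.0025 for mesothelial and -0.76125 for endothelial markers. Centred by level they were -0.03 for hair keratins, -0.0125 for non-keratin filaments and 0.04 for mesothelial markers. With the offset they were -0.089898 for ciliated markers, -0.136523 for fibroblast and smooth muscle markers and -0.046535 for keratin-associated proteins. The median turned from negative to positive for mesothelial markers under both scalings, and for root sheath keratins, to 0.035 under quantile normalization and 0.02 centred by level. In each case the cause was not tested.

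No paired analysis was possible because each group has 1 array. Low signals limit the 40 keratins below the filter, where a fold change depends on how background was treated.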

Other observations

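Keratin-associated proteins, which embed hair keratins in the hair shaft, were measured in the same arrays. Of 50 genes, 35 were lower and 15 higher in smoke, with a median log2 difference of -0.175, against -0.02 over all genes; centred by level, 29 were lower and the median was -0.12. Of the 15 above the level filter, 0 were 2-fold or more higher and 3 were 2-fold or more lower, where 3.94% and 2.48% of all genes above the filter were. Krtap5-1 had a log2 signal of 7.22 in smoke and 8.47 in air. Krtap4-8 had 5.85 in smoke and 7.04 in air, and Krtap5-4 had 5.37 in smoke and 6.49 in air. With the offset their log2 differences were -1.17, -1.0 and -0.88. These genes form families of near-identical copies that the array's probes may not separate, and the hair keratins themselves were below the filter apart from Krt39.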
